A study of Rattus norvegicus with 8 samples.

Results

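Transcripts of 5 genes that work in red blood cells were followed in rat liver: Ahsp, Hbb, Slc4a1, Alas2 and Epb42. They were chosen by name, with earlier results of these data known, and each was read from its brightest array probe. They are 5 of 15154 named genes on the array, and 4 of them are among the 10004 named genes whose liver signal stood above background on at least 4 arrays. Epb42 did not reach that level on any array. The livers came from adult male Sprague-Dawley rats aged 78 to 86 days. In the AhR group (n = 4 arrays) the dams had been given a mixture of aryl hydrocarbon receptor agonists, made up of non-ortho polychlorinated biphenyls, polychlorinated dioxins and polychlorinated furans in corn oil, at 1.8 ng of TCDD toxic equivalents per kg per day. In the control group (n = 4 arrays) the dams had been given corn oil alone. Dosing ran over pregnancy and lactation, from gestation day 0 to postnatal day 20, and the pups of both groups stayed with their birth mothers. Liver RNA was pooled in pairs of rats before hybridisation, giving 4 pools from the 8 pups of a group, and litters are not named in the labels.

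Red cells fill with haemoglobin while they still have a nucleus, and young circulating red cells, the reticulocytes, keep globin messenger RNA for a short time after the nucleus is lost. Their precursors divide in the bone marrow and, in rodents, also in the spleen; the liver makes red cells in the fetus. Liver is rich in blood, so a piece of adult liver carries RNA of circulating cells beside that of its own. Precursors are marked by the transcription factors Gata1 and Klf1, the erythropoietin receptor Epor and the transferrin receptor Tfrc, while globins and Alas2 mark the late stages as well. Hbb encodes the beta chain of haemoglobin. Ahsp encodes a chaperone that holds free alpha globin. Alas2 encodes the red cell form of the enzyme for the first step of haem synthesis. Slc4a1 encodes band 3, the anion exchanger of the red cell membrane, and Epb42 encodes protein 4.2, which ties band 3 to the membrane skeleton.

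The stretch just upstream of a gene's start holds many of the short motifs that red cell transcription factors recognise, and the 250 bases before the start are shown for the members that have an entry in the RefSeq promoter table of assembly GRCr8, which are 3 of 5, and for Rhd and Add2, the 2 genes whose array pattern was most like theirs. Capitals mark GATA motifs, searched as the letters GATA after A or T and before A or G, and the CACCC-type motif CCNCNCCC, in which N is any base; both were searched on both strands, and no match of one overlaps a match of the other in these 5 windows. The Hbb window is chr1:167663722-167663971 on the minus strand. The Alas2 window is chrX:22895200-22895449 on the plus strand. The Epb42 window is chr3:128451684-128451933 on the minus strand. The Rhd window is chr5:152370950-152371199 on the plus strand. The Add2 window is chr4:120054628-120054877 on the plus strand.
Hbb: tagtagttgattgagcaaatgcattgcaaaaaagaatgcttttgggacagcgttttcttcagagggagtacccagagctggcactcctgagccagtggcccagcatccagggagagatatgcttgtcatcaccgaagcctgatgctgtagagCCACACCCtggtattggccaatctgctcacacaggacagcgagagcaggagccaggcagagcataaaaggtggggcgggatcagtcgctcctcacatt
Alas2: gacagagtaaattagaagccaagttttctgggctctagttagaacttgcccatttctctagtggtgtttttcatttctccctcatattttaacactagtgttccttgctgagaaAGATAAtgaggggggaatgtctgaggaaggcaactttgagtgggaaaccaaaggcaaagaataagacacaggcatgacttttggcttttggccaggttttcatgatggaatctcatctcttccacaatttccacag
Epb42: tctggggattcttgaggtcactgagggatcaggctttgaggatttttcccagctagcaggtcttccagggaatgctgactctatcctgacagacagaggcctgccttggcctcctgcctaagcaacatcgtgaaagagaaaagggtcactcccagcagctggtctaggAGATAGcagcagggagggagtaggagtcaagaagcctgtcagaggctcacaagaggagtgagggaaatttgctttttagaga
Rhd: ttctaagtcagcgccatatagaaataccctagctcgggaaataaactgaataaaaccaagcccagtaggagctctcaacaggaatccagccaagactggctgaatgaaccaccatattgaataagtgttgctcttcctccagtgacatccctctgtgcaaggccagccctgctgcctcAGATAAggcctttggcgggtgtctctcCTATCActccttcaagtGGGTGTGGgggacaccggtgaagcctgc
Add2: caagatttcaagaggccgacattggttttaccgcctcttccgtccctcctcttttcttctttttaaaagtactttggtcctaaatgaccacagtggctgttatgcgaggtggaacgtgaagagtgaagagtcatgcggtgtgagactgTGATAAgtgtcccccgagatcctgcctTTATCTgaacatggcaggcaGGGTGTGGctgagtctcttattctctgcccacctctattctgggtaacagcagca

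The Hbb window held 1 CACCC-type match, which began 98 bases before the start. The Alas2 window held 1 GATA match at 136 bases, and the Epb42 window held 1 at 82 bases. Rhd, which encodes a blood group protein of the red cell membrane, had GATA matches at 72 and 45 bases and a CACCC-type match at 28 bases. Add2, which encodes beta adducin of the membrane skeleton, had them at 102 and 75 bases and at 55 bases. Of 33469 promoter windows of the same length, 27% held a GATA motif, 42.8% held the CACCC-type motif and 7.57% held both. Among the members 2 of 3 windows held a GATA motif, 1 held the CACCC-type motif and 0 held both. A match is a run of letters and says nothing of binding.

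Hbb had log2 ratios of liver Cy5 over reference Cy3 of -0.79, 0.07, -1.41 and -0.87 on AhR arrays 1 to 4, against -0.21, 0.89, -0.81 and -0.63 on control arrays 1 to 4. The highest array was control 2, the next was AhR 2, and AhR 3 was the lowest, so the groups overlapped. The means were -0.75 ± 0.61 in AhR livers and -0.19 ± 0.76 in control livers (SD, n = 4 each). The difference, AhR minus control, was -0.56 (limma, SE 0.38, 95% interval -1.39 to 0.27, adjusted p = 1.00; exact permutation p = 0.371, two-sided). A ratio of 0 means that liver and the Cy3 reference, a pool of RNA from 14 rat cell lines, were equally bright, and each step of 1 is a change by a factor of 2.

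A second Hbb probe showed the same order at both ends, with control 2 highest and AhR 3 lowest, and a difference of -0.52. The Cy3 reference is meant to be the same on every array. On the brighter Hbb probe, however, normalized Cy3 spanned 0.68 on the log2 scale over the 8 arrays and Cy5 spanned 1.59. The lowest Cy3 values were 15.85 on control 2, 16.17 on control 1 and 16.18 on AhR 2, and the others lay between 16.44 and 16.53. On the dimmer Hbb probe Cy3 spanned 0.16 and Cy5 spanned 1.89. The array order thus held at both ends on the probe whose reference channel was nearly flat. Saturation was marked on 0 probes.

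Ahsp had the widest spread of the 5 genes. Its log2 ratios were -2.14, -1.0, -2.27 and -1.84 on AhR arrays 1 to 4, against -1.78, 0.31, -1.64 and -1.35 on control arrays 1 to 4. Control 2 lay 1.90 above the mean of the other 3 controls, which is 3.74-fold, and AhR 2 lay 1.09 above the mean of the other 3 AhR arrays. The ratio on control 2 was 6.0-fold that on AhR 3, the lowest array. Group means were -1.81 ± 0.57 in AhR livers and -1.11 ± 0.97 in control livers (SD, n = 4 each). The difference was -0.70 (limma, SE 0.43, 95% interval -1.65 to 0.25, adjusted p = 1.00; exact permutation p = 0.257). A second Ahsp probe differed by -0.65, with the same highest, second and lowest arrays. The Cy3 signal of Ahsp spanned 0.15 on the log2 scale, against 2.52 for Cy5, which was highest on control 2 and lowest on AhR 3 as well.

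Alas2 had log2 ratios of -0.31, -0.02, -1.22 and -0.68 on AhR arrays 1 to 4, against -0.76, 0.52, -0.28 and -0.34 on control arrays 1 to 4. Control 2 was again highest, AhR 2 was second and AhR 3 was lowest. The means were -0.56 ± 0.51 in AhR livers and -0.22 ± 0.53 in control livers (SD, n = 4 each), a difference of -0.34 (limma, SE 0.29, 95% interval -0.98 to 0.30, adjusted p = 1.00; exact permutation p = 0.429).

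Slc4a1 had log2 ratios of -1.15, -1.24, -1.82 and -1.24 on AhR arrays 1 to 4, against -1.37, -0.35, -0.96 and -1.49 on control arrays 1 to 4. Control 2 was highest and AhR 3 lowest here too, but the second array was control 3, and AhR 2 was level with AhR 4. Its means were -1.36 ± 0.31 in AhR livers and -1.04 ± 0.52 in control livers (SD, n = 4 each). The difference of -0.32 (limma, SE 0.24, 95% interval -0.85 to 0.21, adjusted p = 1.00; exact permutation p = 0.371) was within the spread between arrays.

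Epb42 gave no usable level. Its raw Cy5 signal was 80.0, 81.8, 86.5 and 83.2 units on AhR arrays 1 to 4, and 72.2, 85.5, 77.5 and 85.5 on control arrays 1 to 4, over local backgrounds of 72.5 to 81.0 units. None of these was well above background, so Epb42 was not tested and its log2 values give no level.

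**Figure D1:**
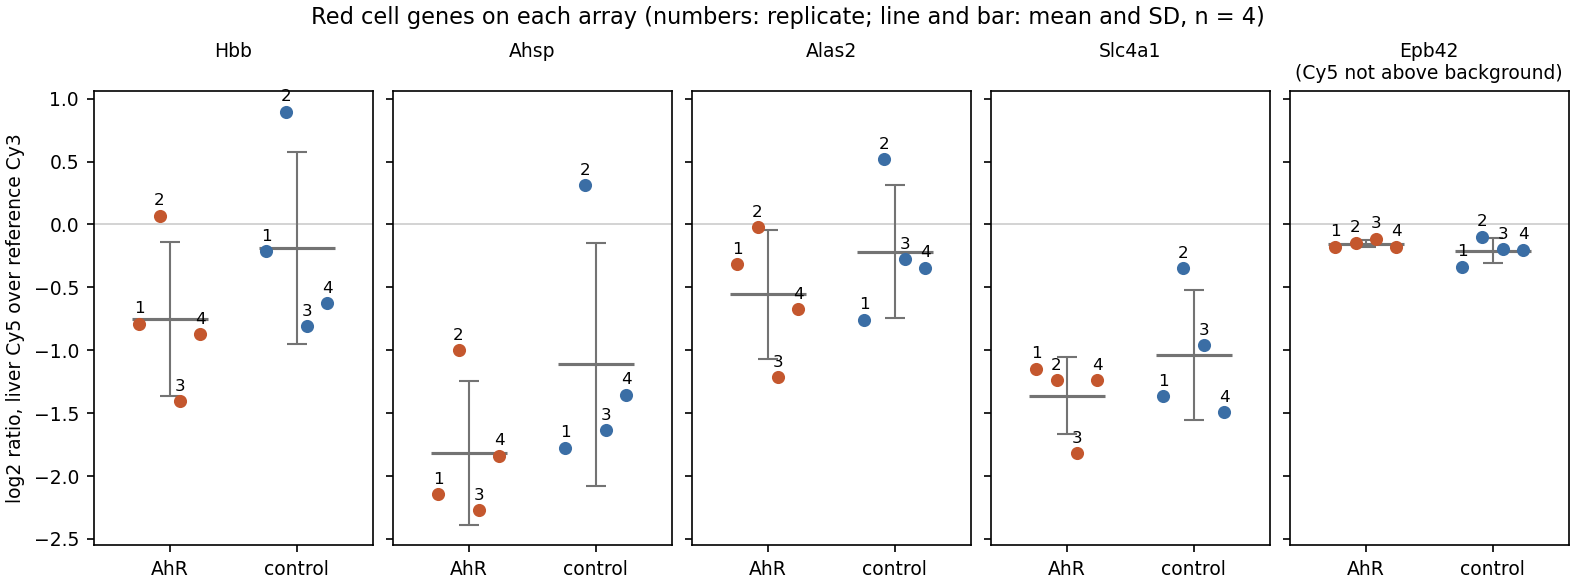
Each point is 1 array, marked with its replicate number, and the vertical axis is the log2 ratio of liver Cy5 over reference Cy3; AhR arrays stand left of control arrays in each panel, and lines and bars are the mean and SD (n = 4). Control 2 is the highest point and AhR 3 the lowest in the panels of Hbb, Ahsp, Alas2 and Slc4a1, and the groups overlap in all 5 panels.

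Of the 4 members tested, 0 passed an adjusted p of 0.05 and 0 had groups that did not overlap. Over all 17859 probes tested, 0 passed (0%), 288 (1.61%) had an unadjusted p under 0.05, and 212 (1.19%) had groups that did not overlap. The median difference of the 4 members was -0.45, beside 0.00 over all 10004 named genes. Without control 2 the median was -0.15, and the differences were -0.20 for Hbb, -0.23 for Ahsp, -0.10 for Alas2 and -0.09 for Slc4a1. Without AhR 2, the high array of the other group, the median was -0.68 and the difference of Ahsp was -0.97, and without AhR 3, the lowest array, the median was -0.26. Without control 2 and AhR 2 together, an alternative chosen after seeing the data, the median was -0.37, with -0.50 for Ahsp and -0.47 for Hbb. The members were 0 of 4 past the adjusted threshold in each of these fits.

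The 8 arrays lay on 1 slide in a pair of rows, and each row held 2 arrays of each group. In the row with AhR 1, AhR 3, control 2 and control 4, the differences were -1.69 for Ahsp, -1.23 for Hbb, -0.85 for Alas2 and -0.56 for Slc4a1. In the row with AhR 2, AhR 4, control 1 and control 3, they were 0.29 for Ahsp, 0.11 for Hbb, 0.17 for Alas2 and -0.08 for Slc4a1. The sign thus did not hold within both rows for 3 of the 4 genes. The row with the larger differences held both the highest array, control 2, and the lowest, AhR 3, and slide position and these arrays cannot be told apart. With slide row as a block the differences were the same, with SE of 0.44 for Ahsp and 0.39 for Hbb.

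**Figure D2:**
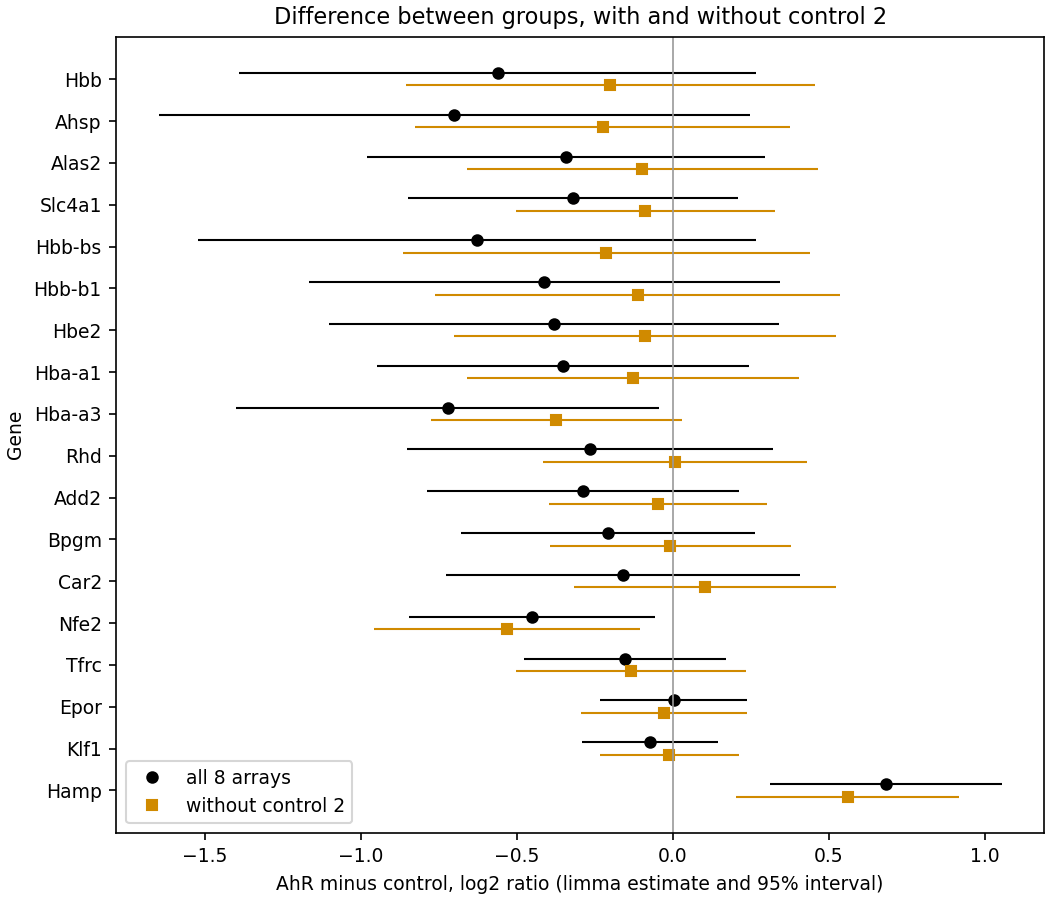
The horizontal axis is the AhR minus control difference in log2 ratio, with the limma estimate and 95% interval for each gene; black circles use all 8 arrays and orange squares leave out control 2. Hbb lies at -0.56 with all arrays and at -0.20 without control 2, and Ahsp at -0.70 and -0.23; Epor lies near 0 and Hamp above 0 in both fits.

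Other red cell genes were taken from 5 lists (globins with their chaperone, haem synthesis, membrane, cytosol and maturation, and regulators of precursors), which hold 69 genes with the members. Of these, 57 had a matched probe and 44 were measured. In AhR livers 31 had a lower mean and 13 a higher one, 0 were called, and 2 had an unadjusted p under 0.05, namely Hba-a3 and Nfe2. Among all named genes 5057 of 10004 were lower. The 31 became 32 of 44 without control 2. With any single array left out, 30 to 33 were lower. The median over the 44 was -0.10, and -0.06 without control 2. Lists of other cells also leaned one way between the groups, with 0 genes called in any of them. In AhR livers 12 of 15 proliferation genes were lower, with a median of -0.19, and of -0.27 without control 2 and -0.05 without control 3. Of 9 T and NK cell genes 8 were lower, with a median of -0.07, and 4 of 9 were lower without control 2. Of 7 platelet genes 6 were lower, with a median of -0.05. Kupffer cell genes were higher in 10 of 11 cases, with a median of 0.15, but 8 of 11 were lower without control 1, with a median of -0.06. Endothelial genes were higher in 7 of 7 cases, with a median of 0.13, and of 0.01 without control 3. Their part in the red cell differences was not tested.

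Globins and Ahsp had the largest median difference of the 5 lists. Of 8 measured genes of that list 7 were lower in AhR livers, with a median difference of -0.49, and 7 were also lower without control 2, with a median of -0.16. Hba-a3, an alpha globin gene, averaged -0.66 ± 0.31 in AhR livers and 0.06 ± 0.73 in control livers (SD, n = 4 each), a difference of -0.72 (limma, SE 0.31, adjusted p = 1.00) that was -0.37 without control 2. Hbb-bs, a second beta globin gene, differed by -0.63 (SE 0.40), Hbb-b1 by -0.41 and Hba-a1 by -0.35. A second, dimmer Hba-a1 probe differed by -0.51. Normalized Cy3 spanned 0.61 on the brighter Hba-a1 probe, 0.22 on the dimmer one and 0.55 on the brighter Hbb-b1 probe. Hbe2 differed by -0.38. The gene Hbg1, barely above background with a mean Cy5 of 113 units, differed by 0.00. The beta globin genes, and likewise the alpha globin genes, are close copies of each other; how far their probes catch each other's transcripts was not tested, so single globin genes are uncertain.

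In AhR livers 3 of 12 haem synthesis genes had a higher mean and 9 a lower one, with a median of -0.10. Apart from Alas2, the enzymes of this list serve the liver's own haem supply as well. Fech, which puts iron into the ring, differed by -0.16 (SE 0.12), and Urod, an enzyme in the middle of the pathway, by -0.16 (SE 0.14). Alad differed by -0.15, Cpox by -0.03 and Ppox by -0.09. None of these 5 enzymes followed the arrays as Alas2 did: control 2 lay between -0.18 and 0.13 from the other controls for them, against 0.98 for Alas2.

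Among the membrane genes 7 of 15 with a probe were not measured, and 6 of these, among them Epb42, Sptb, Rhag, Tmod1 and Slc14a1, were above background on no array; Sptb encodes a spectrin chain of the membrane skeleton. Of the 8 measured, 5 were lower and 3 higher in AhR livers, with a median of -0.10 and of -0.04 without control 2. Add2 differed by -0.29 (SE 0.23), Rhd by -0.27 (SE 0.26) and Kel, a blood group antigen gene, by -0.12 (SE 0.10). Normalized Cy3 of Add2 spanned 0.95 on the log2 scale and its Cy5 1.73, while Cy3 of Rhd spanned 0.18. Kel was above background on only 4 of 8 arrays. The difference of Rhd was 0.01 without control 2.

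Of 7 measured cytosol and maturation genes 4 were lower and 3 higher in AhR livers, with a median of -0.06. Bpgm, whose enzyme makes the phosphoglycerate compound that sets oxygen release, differed by -0.21 (SE 0.21), and by -0.01 without control 2. Blvrb, a biliverdin reductase gene that the liver also expresses, differed by 0.14 (SE 0.09), and Bnip3l, needed for clearing mitochondria from reticulocytes, by -0.08 (SE 0.14).

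Several regulators of red cell precursors were dim. Gata1 was above background on 0 of 8 arrays, Gfi1b and Gata2 on 1 each, and Klf1 on 5. Epor averaged -0.22 ± 0.16 in AhR livers and -0.22 ± 0.12 in control livers (SD, n = 4 each), a difference of 0.00 (SE 0.11). Tfrc, which iron-hungry precursors display in number and other cells carry too, averaged -1.89 ± 0.31 in AhR livers and -1.73 ± 0.12 in control livers, a difference of -0.15 (SE 0.15). Klf1 differed by -0.07 (SE 0.10), and Tal1, a partner of Gata1, by 0.12 (SE 0.10). Nfe2, a factor of late red cells and of platelet-forming cells, averaged -0.64 ± 0.13 in AhR livers and -0.19 ± 0.41 in control livers. Its difference of -0.45 (limma, SE 0.18, adjusted p = 1.00) was -0.53 without control 2 and -0.27 without control 1, its highest array. Over the 9 measured genes of the list 6 were lower and 3 higher, with a median of -0.05.

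**Figure D3:**
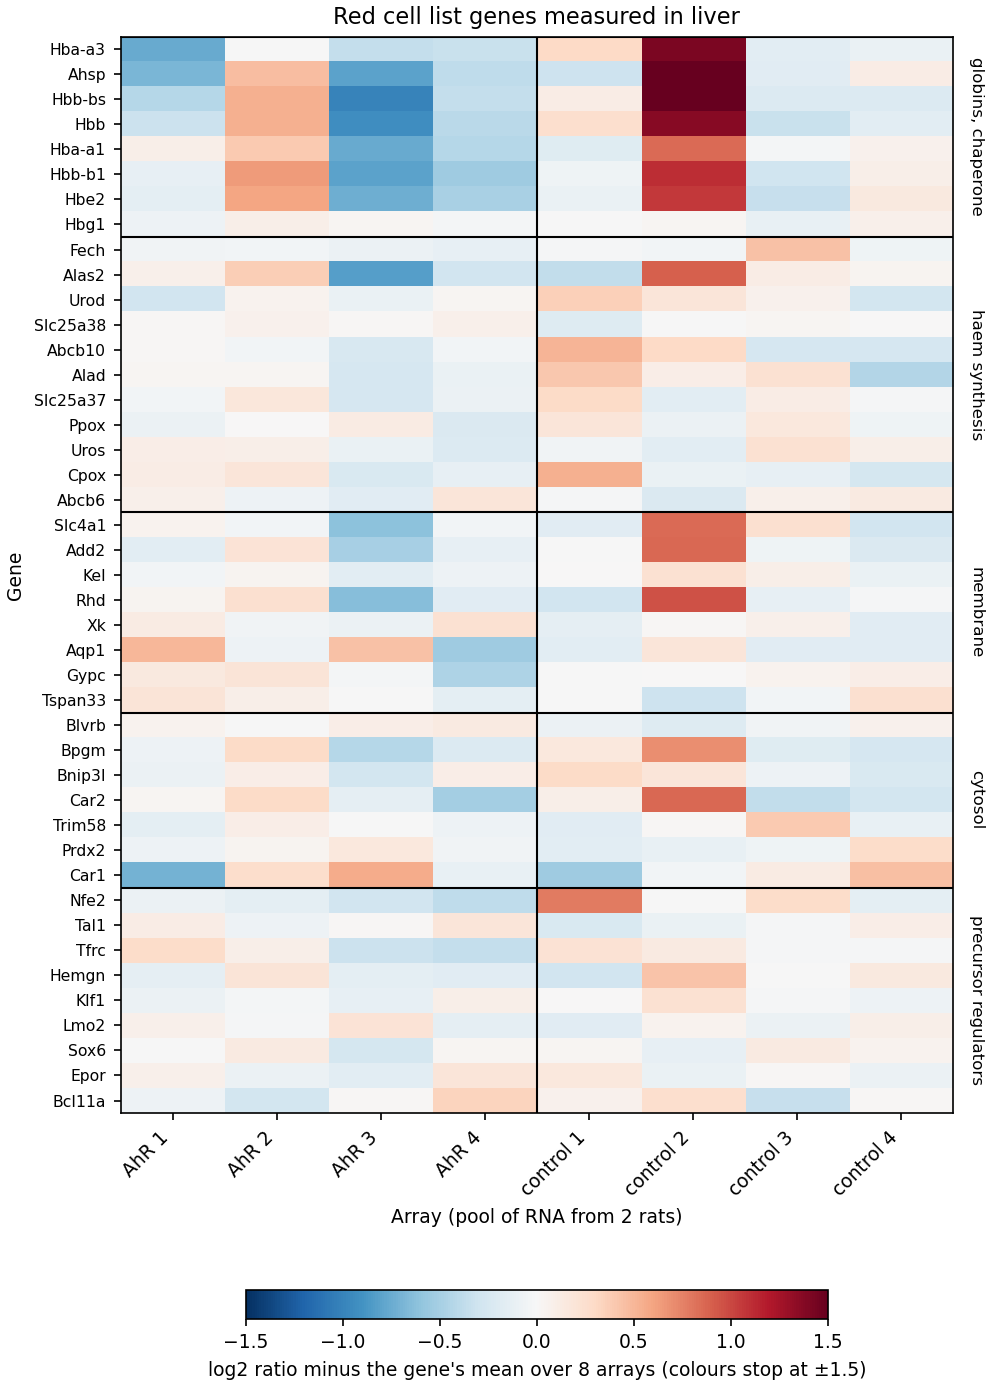
Rows are 43 of the 44 measured genes of the 5 red cell lists, columns are the 8 arrays with AhR left of control, and colour gives the log2 ratio minus the gene's mean over the 8 arrays. Control 2 is red for the globins other than Hbg1, and for Ahsp, Alas2, Slc4a1, Add2, Rhd, Bpgm and Car2. AhR 3 is blue in most of these rows. Control 2 is pale for most haem synthesis enzymes and precursor regulators.

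The high values on control 2 were uneven across the red cell lists. Control 2 lay above the mean of the other 3 controls by a median of 1.30 for globins and Ahsp, with 7 of 8 genes highest of the 8 arrays there, and by 0.29 for membrane genes, with 4 of 8. For regulators of precursors the median was 0.08, with 2 of 9, for cytosol genes -0.02, with 2 of 7, and for haem synthesis -0.16, with 1 of 12. Over the 44 red cell genes 16 were highest on control 2, and 17 were lowest on AhR 3. Without the members these were 12 and 13 of 40. Over all 10004 named genes 1130 (11.3%) were highest on control 2 and 1067 were lowest on AhR 3. Control 2 exceeded the other controls by more than 1 for 33 of the 10004 genes, and 8 of these 33 were among the 44 red cell genes. The 8 were Hbb, Hbb-bs, Hbb-b1, Hbe2, Hba-a3, Ahsp, Rhd and Car2. Hbb and Ahsp are members, and the beta globin genes are close copies, so the 8 are not independent. Among the genes that mark precursors, control 2 minus the other controls was 0.25 for Klf1, 0.08 for Tfrc and -0.12 for Epor. For Hemgn, a nuclear protein gene of red cell precursors, it was 0.48. Klf1 and Hemgn were highest on control 2. Klf1, Hemgn and Epor were dim, with mean Cy5 of 101, 114 and 121 units, while Tfrc averaged 2031 units. The processing shrinks ratios of dim probes, so precursor genes and globins were not compared at like brightness. The 15 measured proliferation genes had a median of -0.09 on control 2.

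Genes of other blood and liver cells were read on the same array. S100a8 and S100a9, calprotectin genes of neutrophils and monocytes, were 1.5 and 1.47 above the other controls on control 2, while Camp, a granule gene of neutrophils, was at -0.42. Only these 3 of 11 neutrophil genes with a probe were measured, and 6 were above background on no array. AhR 2, the second highest array for Hbb, Ahsp and Alas2, was 0.12 and 0.22 above the other AhR arrays for S100a8 and S100a9. AhR 2 lay 1.07 above by the median of globins and Ahsp and 0.71 above for Alas2, but 0.16 above for Slc4a1. On control 2 the medians were 0.03 for 7 platelet genes, with Pf4 at 0.56, 0.22 for 9 T and NK cell genes and 0.08 for 5 B cell genes. Kupffer cell genes had a median of 0.55 on AhR 3, the lowest array for the red cell genes, against the other AhR arrays, and of 0.36 on control 2, with 11 of 11 higher, against the mean of the other controls. Control 1 was low for this list, with a mean log2 ratio of -0.89, against 0.14 on control 2, 0.14 on control 3 and -0.13 on control 4, and control 2 was the highest control for 5 of the 11 genes. Endothelial genes had a median of 0.36 and hepatocyte genes of -0.19 on control 2. For the endothelial list control 3 was the lowest control, with a mean log2 ratio of -0.47. Controls 1, 2 and 4 had -0.15, 0.04 and -0.26. All 20 listed hepatocyte genes, among them Alb, Apoa1 and Ttr, were measured on all 8 arrays.

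The summed Cy5 above background of the 8 globin list genes ranged from 391272 to 1028840 units in AhR livers and from 518599 to 862789 in control livers. These sums are not normalized: the highest came from AhR 2, which also had the highest median Cy5 signal of the 8 arrays, and the next AhR sum was 523950. Their mean normalized log2 ratio ranged from -1.16 to -0.08 in AhR livers and from -0.70 to 0.66 in control livers. That of the 9 precursor genes ranged from -0.39 to -0.26 in AhR livers and from -0.28 to -0.19 in control livers. The labels name no perfusion or bleeding of the livers. In RNA from whole tissue, fewer red cells and less of each transcript per red cell cannot be told apart, and the part that blood left in the tissue has in these differences was not tested.

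**Figure D4:**
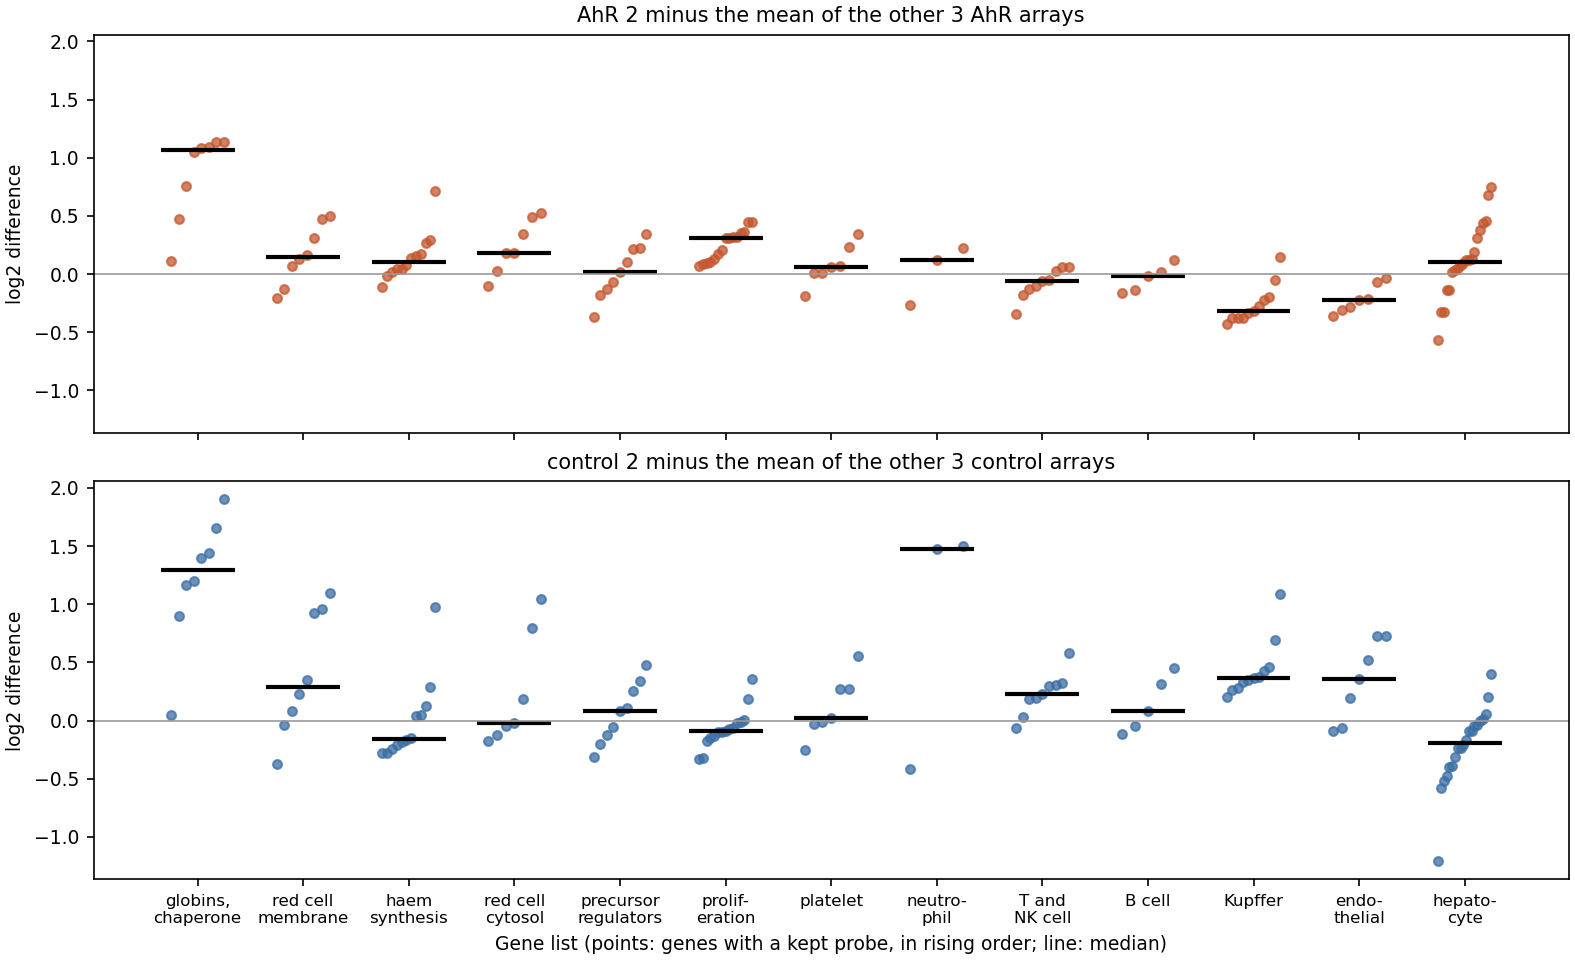
Points are measured genes by list and black lines are list medians. Several precursor regulators are dim, and the processing shrinks ratios of dim probes. The upper panel gives AhR 2 minus the mean of the other 3 AhR arrays and the lower panel gives control 2 minus the mean of the other 3 controls, both in log2 units; globins have medians of 1.07 and 1.30, and precursor regulators of 0.02 and 0.08.

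Genes of iron and haem handling were read for the same livers. Hamp, which encodes hepcidin, the liver hormone that limits iron entry to blood, averaged 0.91 ± 0.15 in AhR livers and 0.22 ± 0.37 in control livers (SD, n = 4 each). The difference of 0.68 (limma, SE 0.17, adjusted p = 1.00; exact permutation p = 0.0286, the smallest that 4 against 4 allows) left the groups apart, and control 2 minus the other controls was -0.49. Over all 17859 probes, 212 (1.19%) had groups that did not overlap, among them a probe of Bub1 from the proliferation list. Smad7 and Id1, which answer to the same signalling path as Hamp, differed by 0.39 (SE 0.16) and 0.02 (SE 0.10). Epo, the gene of the hormone that drives red cell output, was above background on 1 of 8 arrays. Hp and Hpx, which bind free haemoglobin and haem in plasma, differed by -0.01 and 0.22, and Hmox1, the haem-degrading enzyme, by 0.16. Cd163, the macrophage receptor for haptoglobin-bound haemoglobin, differed by 0.25. Without control 2 the differences were 0.19 (SE 0.18) for Hpx, 0.15 (SE 0.24) for Hmox1 and 0.33 (SE 0.20) for Cd163. Cd163 is also in the Kupffer list, of which 8 of 11 genes were lower without control 1. Of 10 haem scavenging genes 7 were higher in AhR livers, with a median of 0.10, and 0 were called.

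The 10 genes whose deviations from their group means followed those of the 4 members most closely over the 8 arrays were Rhd, Add2, Hbb-bs, Cdc25b, Rsad2, Cdr2, Cd52, Mtif2, Hba-a1 and Hbb-b1, with Pearson's r of 0.979 to 0.938 across 10000 genes compared. Of these 10, 5 are in the red cell lists. The likeness is a description over 8 arrays that share 1 slide, and 19 genes had r above 0.9 and 10 below -0.9. Cdc25b encodes a cell cycle phosphatase, Rsad2 an antiviral enzyme induced by interferon, and Cd52 a surface glycoprotein of lymphocytes. Rsad2 was 1.82 above the other controls on control 2 and Cd52 was 1.41. In their promoter windows 8 of the 10 held a GATA motif, 9 the CACCC-type motif and 7 both. The 5 in the red cell lists all held both. Of the others, Cd52 and Mtif2 held both, Cdc25b and Cdr2 held no GATA motif, and Rsad2 held no CACCC-type motif. As searched, with N as any base, the CACCC-type motif also matched runs without the letters CACCC, as in Cdc25b, Cdr2 and Mtif2. Over all 33469 windows the shares were 27%, 42.8% and 7.57%. Hbb-bs and Hbb-b1 had their matches at the same positions, 123 and 108 bases, so the 10 windows are not independent. Further down the order Bpgm had r of 0.918, S100a8 0.817, Klf1 0.759, Tfrc 0.392 and Epor -0.209, while Kupffer marker Cd163 had 0.052 and Hamp -0.684.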

How the data were processed

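Liver RNA (Cy5) and a universal reference RNA (Cy3) were hybridised to 8 two-colour Agilent arrays with no dye swap, per the labels. The intensity values are median spot and local background brightness, deposited as scanner output; per the file headers the software was Agilent Feature Extraction 10.7.3.1, and the processed intensities in the same files are background-subtracted and dye-normalized. A deposited value table in log2 units, of unstated scale and centring, followed log2 Cy5 over Cy3 (slope 0.978 to 0.988, r 0.990 to 0.994 across probes, medians 0.00569 to 0.0165), so its direction is known and its dye correction is not.

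In limma 3.58.1 (R 4.3.3) normexp with offset 50, which shrinks ratios of dim probes, was followed by loess within each array. Control spots had weight 0 and spots of a probe were averaged. Of 30367 probes, 17859 had Cy5 well above background on at least 4 of 8 arrays. RefSeq accessions, without versions, named 18004 probes through the RefSeq table of GRCr8; other probes stayed unnamed. A gene was read from its kept probe of highest mean Cy5. Groups were compared with limma (lmFit, eBayes, Benjamini-Hochberg over 17859 probes) and exact two-sided permutation tests over 70 splits. The test was checked on simulated data. The closest arrays differed by a root mean square of 0.247 (log2), so none was a copy of another. The median Cy5 signal per array was 116 to 150.5 units over a background of 71.25 to 75.75, 56.2% to 62.0% of probes were well above background, and the number of arrays limits precision. P-values measure the spread between pools, which may be technical in part. The dams were dosed and litters are not named, so different pools may hold pups of the same litter. The tests treat pools as independent and make no allowance for that, so SE and p-values may be too small.

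The members, gene lists and tests were chosen with earlier results of these data known. Genes named were the members, the 3 of smallest p in each red cell list, Hamp, Epo, Hmox1, Hp, Hpx, Cd163, Tfrc, Epor, Gata1 and Klf1, and the 10 most like the members. Other genes were named after their values were seen, and a few genes are not reported here. Alternatives covered background correction, normalization, channel, filter, blocks, array weights, the value table and leaving out single arrays. The rest of the study's 72 arrays, which include rats of 21 days, are not analysed here.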

Additional observations from a re-analysis of the deposited data

Results flagged for a closer look

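In groups of 4 arrays the gap between the most extreme array and its neighbour, as a share of the group's whole range, was examined for 49 red cell and named genes in both groups, which made 98 groups. It passed Dixon's 95% critical value for 4 samples in 4 of them, and chance gives about 5%. Slc4a1 had a share of 0.862 among the AhR arrays, where AhR 3 lay below the other 3. Hemgn had 0.885 among the AhR arrays, with AhR 2 above the others. Fech had 0.918 among the control arrays, with control 3 high, and Aqp1, a water channel gene of red cells and of endothelium, had 0.949 among the control arrays, with control 2 high. Ahsp did not pass in either group.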

How the results depend on the processing

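The counts of called members and of called probes were 0 under every alternative run. The differences of Ahsp, Hbb and Alas2 were negative in 22 of 23 alternatives and that of Slc4a1 in 23 of 23. The exceptions came within slide row 1 (AhR 2 and 4, control 1 and 3), where Ahsp differed by 0.29, Hbb by 0.11 and Alas2 by 0.17 and the median of the members was 0.14, against -1.04 in slide row 2; the cause was not tested, and each row holds 2 arrays per group. With 1 array left out at a time, the median ran from -0.68 to -0.15, Ahsp from -0.97 to -0.23, Hbb from -0.83 to -0.20, Slc4a1 from -0.47 to -0.09 and Alas2 from -0.52 to -0.10, each nearest 0 without control 2; without AhR 2 the unadjusted limma p was 0.0480 for Ahsp and 0.0426 for Hbb. The log2 values of Epb42, which are at background and give no level, differed by 0.05, by 0.27 with an offset of 0 and by 0.20 with Agilent processed signals. Array weights gave control 2 a weight of 1.14, within the range of 0.67 to 1.5.

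Replicate numbers pair the groups in the labels by number alone. Same-numbered arrays had correlations of deviations from group means of 0.01, -0.02, 0.11 and -0.30 over 10004 genes. Of the AhR arrays, 0 correlated best with their own number. Control 2 and AhR 2, which share a number, were the highest and second arrays for Hbb, Ahsp and Alas2, but not for Slc4a1. These values cannot show whether the numbers pair the samples, and the labels do not say. With the replicate block the differences were the same, -0.70 for Ahsp and -0.56 for Hbb, with SE of 0.16 and 0.12 and unadjusted limma p of 0.00287 and 0.00200, the median was -0.45, and 0 members and 0 probes were called (limma, adjusted p = 1.00). With all 8 arrays and no block, the 95% intervals of the 4 measured members included 0. Dim probes such as those of Epb42 and Gata1 give no level.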
